A study of Bos taurus with 28 samples.

Results

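The expression of 73 genes for solute carriers, ATP-binding cassette (ABC) proteins, ion pumps and channels was examined in subcutaneous adipose tissue (AT) of dairy cows around calving. These genes were chosen by their symbols, which begin with SLC, ABC and a family letter, KCN, AQP, SCN, CACN, CLCN, or the pump stems ATP1, ATP2 and ATP6 (the prefix ATP1 also takes in the flippases ATP10D, ATP11A and ATP11B). Symbols came from a shortened copy of the study's table of symbols and IDs and covered only part of the annotated genes, 78 genes met the rule, and 73 of them had at least 3 reads in at least 1 library, among 18905 genes with that many reads and 24616 genes listed. RNA-seq libraries were made from right flank biopsies of healthy, multiparous Holstein cows before calving (PreP, day -11, n = 9) and after calving (PP1, day 6, n = 10, and PP2, day 13, n = 9). The 28 libraries came from 11 cows, of which 8 gave all 3 time points, and time relative to calving was the only contrast, with the feed changed from a prepartum to a postpartum diet. Symbols, and no coordinates, are given, because no annotation of the build used by the authors was at hand.

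Solute carriers move metabolites, ions and signalling molecules across membranes along or against gradients, ABC proteins and P-type pumps spend ATP to do so, and channels let ions or water pass. In fat tissue they serve adipocytes, which import glucose and release fatty acids and glycerol, and also blood vessels, nerves and resident immune cells. After calving, a dairy cow draws on its fat stores for milk production, and the tissue switches from storing to releasing lipid.

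Total counts per library ran from 15293154 to 22284884, and 3 reads corresponded to 0.127 to 0.200 CPM (reads scaled to library size, with TMM factors), an allowance for counting error only. Of the cell type markers listed for AT, PPARG, the master regulator of adipocytes, was the only 1 of 9 adipocyte genes with an ID, and it had reads in 28 of 28 libraries, with medians of 160 CPM at PreP, 108 CPM at PP1 and 80.8 CPM at PP2. The milk protein gene CSN2 had 1 read in 28 libraries together. CD68, the only 1 of 6 macrophage genes with an ID, ran from 17.6 to 101 CPM at PreP, from 30.6 to 354 CPM at PP1 and from 38.8 to 257 CPM at PP2, with log2 fold changes of 2.12 (adjusted p = 0.00314 from edgeR) and 1.48 (adjusted p = 0.0206 from edgeR). None of 3 endothelial or 2 leukocyte genes had an ID in that copy, so their levels were not examined, and the erythrocyte gene SLC4A1 had 9 reads in all. The PP2 library of cow B5090 stood apart. In it the muscle genes PYGM and LMOD2, the 2 of 13 muscle genes with an ID, reached 6638 and 1602 CPM, where the PP2 medians were 1.81 and 0.103 CPM. The libraries of cow B5169 also stood apart, with the highest CD68 of PreP and the lowest of PP1. At PP2 the libraries of cows B4886 and B5064 departed together for several transport genes, with values given below under the spread between cows. Calls that rest on the PP2 library of cow B5090 are given with and without it. Leaving out cow B5169 added PP1 calls, and these are given as well.

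Few of the 73 genes were differentially expressed (DEG, adjusted p under 0.05 and absolute log2 fold change over 1). At PP1 against PreP, 1 of 72 genes tested was a DEG, the vesicular nucleotide carrier SLC17A9, where 4.03% of all 18467 genes tested were DEG. At PP2 against PreP, 3 of 73 were DEG, namely SLC17A9, the prostaglandin carrier SLCO2A1 and the calcium pump ATP2A2, where the share over all 18558 genes was 5.47%. All of these were upregulated, and 0 were downregulated, where all genes had 616 DEG up and 128 down at PP1 and 653 up and 362 down at PP2. Both comparisons use the same PreP libraries. In bulk tissue, a change in the RNA per cell and a change in the number of cells of a type cannot be told apart.

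Below that threshold the share of transport genes was also near that of all genes. An unadjusted p under 0.05 was reached by 17 of 72 genes at PP1 (23.6%, against 24.6% of all genes), 8 with a positive and 9 with a negative fold change, where all genes had 2627 and 1915. At PP2 it was reached by 18 of 73 (24.7%, against 21.4%), 15 positive and 3 negative, where all genes had 2512 and 1455. Of these, KCNE1 and SLC45A1 at PP1 and ABCB5 and SLC45A1 at PP2 reached 3 reads only in the group where they were higher, which favours a difference. Setting aside genes that reached 3 reads in only 1 of the groups, the counts were 15 of 69 and 16 of 66. Without a threshold on the fold change, 2 genes at PP1 and 3 at PP2 had an adjusted p under 0.05 from edgeR, where 6.32% and 6.35% of all genes did. Leaving out cow B5169 raised the PP1 count to 14 of 72 genes, 7 up and 7 down, and the share over all genes to 19.4%. They were SLC17A9, SLCO2A1, SLC12A9, SLC22A5, SLC46A1, ATP10D and SCNN1A, which were higher, and SLC10A1, SLC16A5, SLC25A20, SLC25A42, SLC45A1, SLC9A2 and KCNE1, which were lower. The last 3 reached 3 reads only at PreP once this cow was left out, so nothing is read from them, and 11 of 68 remain with such genes set aside. Cow B5169 ran against most other cows from PreP to PP1 (CD68 from 101 to 30.6 CPM), so leaving it out favours calls. Without it 9.5% of all genes were DEG at PP1, against 1.61% to 4.74% without any other single cow. Leaving out the PP2 library of cow B5090 gave 4 of 72 at PP2, namely SLC17A9, SLCO2A1, SLC2A10 and KCNJ8, against 7.84% of all genes. For 0 of the genes did the libraries of PP1 or of PP2 lie fully outside the PreP range, which 0.0379% and 0.151% of all genes did. The median log2 fold change of the transport genes was 0.16 at PP1 and 0.20 at PP2, where all genes had 0.04 and 0.10.

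**Figure D1:**
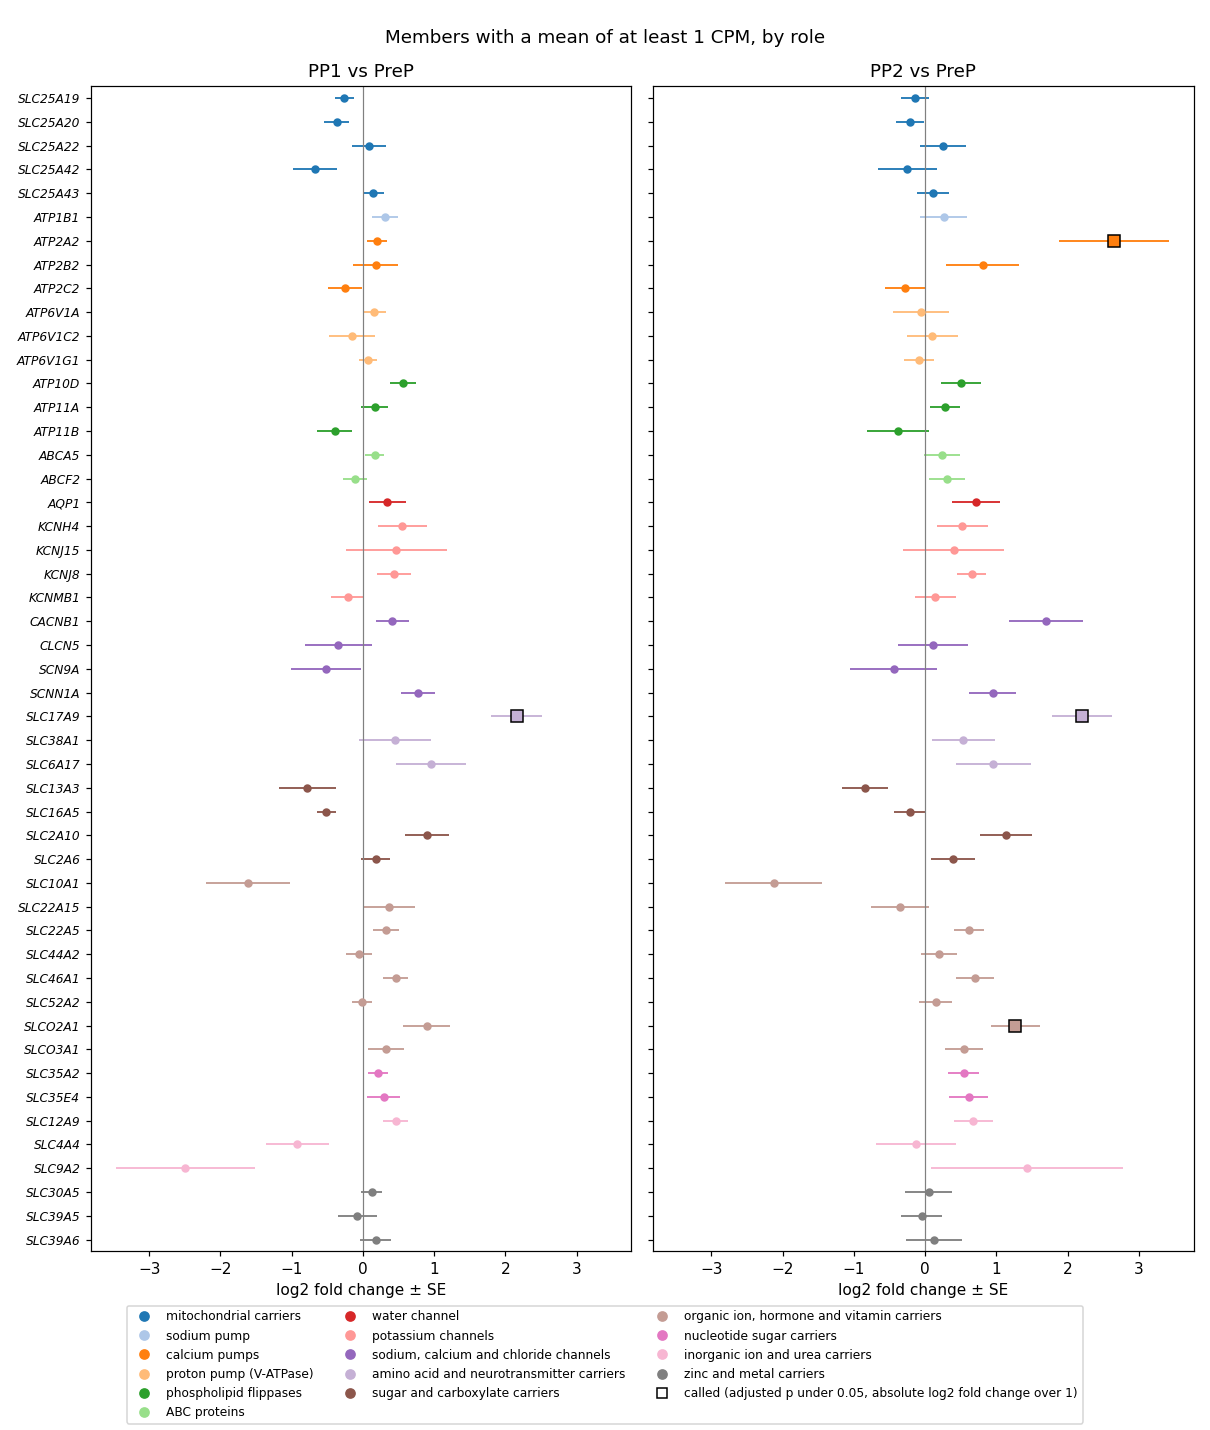
Log2 fold change (x axis, bars are standard errors) of 49 of the 52 genes with a mean of at least 1 CPM, ordered by role (y axis), at PP1 and PP2 against PreP. Squares mark DEG, which are SLC17A9 at PP1 and SLC17A9, SLCO2A1 and ATP2A2 at PP2, and most other genes lie between -1 and 1.

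SLC17A9, which loads ATP and other nucleotides into secretory vesicles, was the transport gene with the lowest p at both time points. It ran from 1.62 to 5.04 CPM at PreP with a median of 3.56 CPM, from 3.96 to 44.3 CPM at PP1 with a median of 14.1 CPM, and from 3.09 to 46.9 CPM at PP2 with a median of 15.2 CPM. Of the PP1 libraries, 9 of 10 lay above the highest PreP library and that of cow B5169 did not, and of the PP2 libraries 8 of 9 did, the exception being cow B5079. SLC17A9 rose by a log2 fold change of 2.16 at PP1 (standard error 0.359, adjusted p = 0.00294 from edgeR), upward in 7 of 8 cows. At PP2 SLC17A9 had a log2 fold change of 2.21 (standard error 0.420, adjusted p = 0.00529 from edgeR), upward in 8 of 8 cows. Blocking on cow (replicate block) gave a PP1 value of 1.89, which no longer passed the threshold (adjusted p = 0.0656 from edgeR), whereas it passed with each cow left out in turn at both time points. The macrophage marker CD68 showed the same arrangement at PP1, with 9 of 10 libraries above all PreP libraries and that of cow B5169 within the PreP range, while at PP2 6 of 9 libraries were above. The part of CD68-bearing cells in the SLC17A9 values was not tested.

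The other 5 amino acid and neurotransmitter carriers had log2 fold changes between 0.06 and 0.95 at PP1 and between -0.55 and 0.96 at PP2, and none of them passed an unadjusted p of 0.05. SLC6A17, a synaptic vesicle amino acid carrier, was at the upper end of both ranges. SLC38A1, a glutamine importer, had medians of 0.94, 0.89 and 1.47 CPM at PreP, PP1 and PP2.

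**Figure D2:**
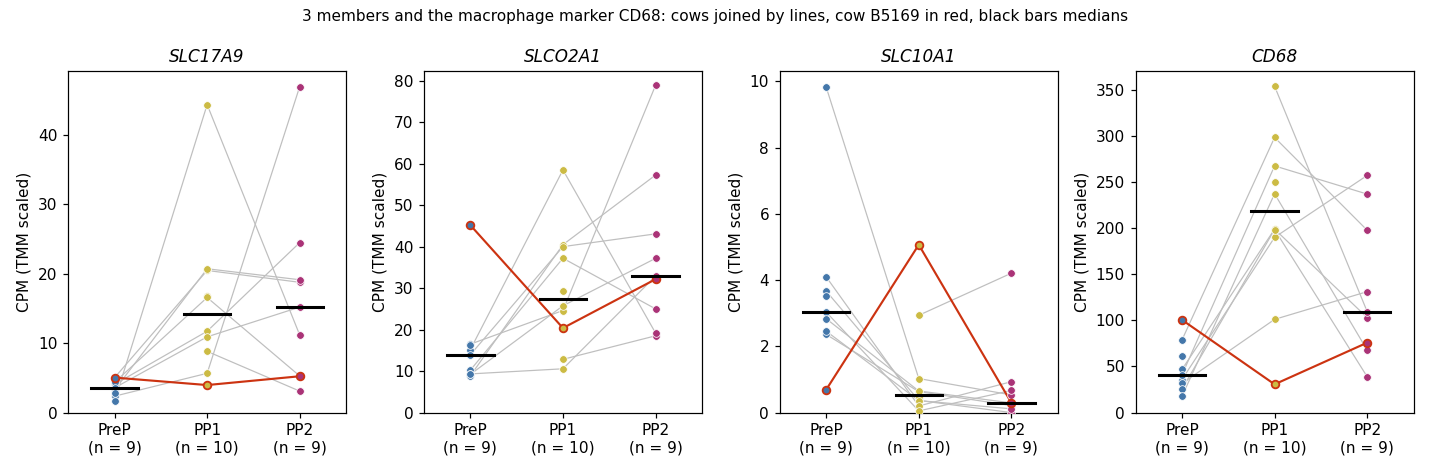
CPM (y axis, linear from 0) of SLC17A9, SLCO2A1, SLC10A1 and the macrophage marker CD68 at the 3 time points (x axis), where a point is a library, lines join libraries of a cow, black bars are medians and cow B5169 is in red. SLC17A9 and CD68 lie above the PreP range in 9 of 10 PP1 libraries, and the values of cow B5169 run against those of most other cows from PreP to PP1.

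SLCO2A1 takes up prostaglandins from outside the cell, which leads to their breakdown. Its values ran from 8.87 to 45.2 CPM at PreP (median 13.95 CPM), from 10.6 to 58.5 CPM at PP1 (median 27.5 CPM) and from 18.52 to 79.0 CPM at PP2 (median 32.9 CPM). Cow B5169 alone set the upper end of the PreP range, and PP2 libraries exceeded it in 2 of 9 cases, while all 9 lay above the other 8 PreP libraries. SLCO2A1 rose at PP2 by a log2 fold change of 1.27 (standard error 0.341, adjusted p = 0.0306 from edgeR), upward in 7 of 8 cows. At PP1 the value was 0.90 (standard error 0.328, adjusted p = 0.0987 from edgeR). Without cow B5169 it was 1.32 at PP1 (adjusted p = 0.0023 from edgeR) and 1.65 at PP2, and the PP2 call was lost in turn without cow B4886, B4987, B5102, B5129, B5165 or B5176, with a lowest value of 1.04. CD68 was also higher after calving, with medians of 40.9, 218 and 109 CPM at PreP, PP1 and PP2, and both genes were highest at PreP in cow B5169. At PP1 the lowest SLCO2A1 values, 10.6 and 12.8 CPM, were those of cows B5102 and B5079, which were at 237 and 354 CPM for CD68. The part of CD68-bearing cells in the SLCO2A1 values was not tested.

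SLC10A1, the sodium-coupled bile acid importer known from liver, had the most negative fold change among the 52 genes with a mean of at least 1 CPM at PP2. It ran from 0.69 to 9.83 CPM at PreP (median 3.04 CPM), from 0.05 to 5.07 CPM at PP1 (median 0.55 CPM) and from 0 to 4.21 CPM at PP2 (median 0.30 CPM). At both later time points 7 libraries lay below the lowest PreP library, which was again that of cow B5169, and this cow had the highest value of PP1. The log2 fold changes were -1.62 at PP1 (standard error 0.591, adjusted p = 0.0985 from edgeR) and -2.12 at PP2 (standard error 0.679, adjusted p = 0.0642 from edgeR), lower in 7 of 8 and in 8 of 8 cows. Neither value passed the threshold. Blocking on cow, SLC10A1 was at -3.26 at PP2 (adjusted p = 0.0172 from edgeR) and at -2.59 at PP1 (adjusted p = 0.0948 from edgeR). The block draws nothing from cow B5079, which had the highest PP2 value and no PreP library. Without cow B5169 SLC10A1 was at -2.40 at PP1 (adjusted p = 0.00248 from edgeR). At PP2 it was -2.06 without the PP2 library of cow B5090 (adjusted p = 0.0721 from edgeR), and ran from -3.23 to -1.71 with a cow left out. The adipocyte marker PPARG had log2 fold changes of -0.42 (adjusted p = 0.269 from edgeR) and -0.89 (adjusted p = 0.0917 from edgeR). At PP1 the libraries of cows B5169 and B5079 were highest for SLC10A1 and were at 225 and 193.8 CPM for PPARG, while that of cow B4987 was at 200.4 CPM for PPARG and at 0.63 CPM for SLC10A1. At PP2 that of cow B5079 was highest for SLC10A1 and was at 147 CPM for PPARG, while cow B5169 had the highest PPARG, 164 CPM, with 0.30 CPM of SLC10A1. The part of adipocyte RNA in the SLC10A1 values was not tested.

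Among the other carriers of organic ions, hormones, carnitine, choline and vitamins, none was a DEG. An unadjusted p under 0.05 from edgeR was reached by 2 further genes at PP2 and 1 at PP1, where 21.4% and 24.6% of all genes reached it. SLC22A5, which imports the carnitine needed for mitochondrial fatty acid oxidation, had medians of 7.25, 9.96 and 12.3 CPM at PreP, PP1 and PP2, with a log2 fold change at PP2 of 0.61 (standard error 0.213, adjusted p = 0.0872 from edgeR, higher in 7 of 8 cows). The proton-coupled folate importer SLC46A1 had medians of 13.0, 20.6 and 19.8 CPM and log2 fold changes of 0.46 (adjusted p = 0.116 from edgeR) and 0.71 (adjusted p = 0.121 from edgeR). Ranges of the 3 time points overlapped for both genes. SLC44A2, a choline carrier-like protein and the most abundant of this group in CPM, ranged from 183 to 462 CPM at PreP, from 195 to 391 CPM at PP1 and from 142 to 591 CPM at PP2. The fold changes of SLC44A2 were -0.06 (standard error 0.183) and 0.20 (standard error 0.254) on the log2 scale, within the spread between cows. SLC52A2, a riboflavin importer, had medians of 49.0, 46.8 and 47.8 CPM.

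The 5 sugar and carboxylate carriers went in both directions. SLC16A5, a member of the monocarboxylate carrier family, ran from 22.04 to 42.1 CPM at PreP (median 28.9 CPM), from 16.4 to 28.4 CPM at PP1 (median 21.3 CPM) and from 12.7 to 48.0 CPM at PP2 (median 22.3 CPM), and 7 of 10 PP1 libraries were below the lowest PreP library. It fell by 0.51 on the log2 scale at PP1 (standard error 0.128, adjusted p = 0.0211 from edgeR), in 8 of 8 cows, a change smaller than the threshold for a DEG, and at PP2 the value was -0.21 (adjusted p = 0.646 from edgeR). Blocking on cow gave -0.45 with an adjusted p of 0.0864 from edgeR, and the adjusted p was 0.0557 without cow B5102 and 0.0603 without cow B5129, with values of -0.48 and -0.52. SLC2A10, the glucose transporter GLUT10, had medians of 3.65, 5.48 and 6.15 CPM. Its log2 fold changes of 0.90 at PP1 (standard error 0.310, adjusted p = 0.0806 from edgeR) and 1.13 at PP2 (standard error 0.362, adjusted p = 0.0641 from edgeR) did not pass, and without the PP2 library of cow B5090 SLC2A10 was a DEG at PP2 (log2 fold change 1.24, adjusted p = 0.0329 from edgeR). Without cow B4987, the highest of PP2, SLC2A10 was at 0.71 (adjusted p = 0.228 from edgeR).

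SLC13A3, which imports citric acid cycle intermediates with sodium, had medians of 22.9, 12.8 and 12.7 CPM at PreP, PP1 and PP2. Its log2 fold changes were -0.78 (adjusted p = 0.234 from edgeR) and -0.84 (adjusted p = 0.125 from edgeR), with lower values in 6 of 8 and in 8 of 8 cows. The hexose carrier SLC2A6 was at medians of 7.45, 8.08 and 7.81 CPM, with log2 fold changes of 0.18 and 0.40 that were as low as 0.077 and 0.13 with a cow left out. SLC45A1, a proton-coupled sugar carrier of brain, had 17 reads at PreP, 5 at PP1 and 2 at PP2, too few for a level.

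None of the 6 mitochondrial carriers was a DEG. Of these genes, 4 were negative at PP1 and 3 at PP2, and the medians were -0.19 and -0.04. SLC25A20, which exchanges acylcarnitines for carnitine across the inner mitochondrial membrane and was the most abundant of them, had medians of 66.9, 50.9 and 52.9 CPM and log2 fold changes of -0.37 (standard error 0.172, adjusted p = 0.189 from edgeR) and -0.21 (standard error 0.201, adjusted p = 0.614 from edgeR), the latter -0.37 without the PP2 library of cow B5090 (adjusted p = 0.227 from edgeR). SLC25A42, which brings coenzyme A into the matrix, lay below the lowest PreP library in 7 of 10 PP1 and 7 of 9 PP2 libraries. Cow B5090 set it apart at PP2, with 31.5 CPM where the median was 5.50 CPM, and the log2 fold change of -0.25 (adjusted p = 0.811 from edgeR) became -0.91 (adjusted p = 0.0588 from edgeR) without that library. With that library kept, it was -0.123, -0.125 and -0.141 without cow B4987, B5129 and B5176. At PP1 SLC25A42 ran from -0.98 to -0.56 with a cow left out, the former without cow B5169 (adjusted p = 0.0147 from edgeR).

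Carriers of the Golgi and of metal ions were likewise not DEG. SLC35A2, which brings UDP-galactose into the Golgi, had medians of 14.6, 18.0 and 20.5 CPM and log2 fold changes of 0.21 (standard error 0.140, adjusted p = 0.355 from edgeR) and 0.54 (standard error 0.213, adjusted p = 0.138 from edgeR). SLC30A5, a zinc carrier of the secretory pathway, had medians of 37.3, 36.8 and 35.1 CPM, and log2 fold changes of 0.12 (standard error 0.151) and 0.05 (standard error 0.329). The 4 zinc and metal carriers together had median log2 fold changes of 0.15 and 0.09. Of the inorganic ion carriers, SLC12A9, of the cation-chloride cotransporter family, had medians of 44.6, 67.2 and 53.5 CPM, and log2 fold changes of 0.46 (standard error 0.173, adjusted p = 0.107 from edgeR) and 0.68 (standard error 0.277, adjusted p = 0.151 from edgeR). SLC4A4, which carries sodium with bicarbonate, varied widely between cows, from 3.11 to 34.5 CPM at PreP, from 2.76 to 14.4 CPM at PP1 and from 2.15 to 43.6 CPM at PP2.

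Among the pumps, ATP2A2 was the only DEG. ATP2A2 (SERCA2) returns calcium to the endoplasmic reticulum and is abundant in heart and slow-twitch muscle. It ran from 50.9 to 81.0 CPM at PreP (median 63.9 CPM), from 51.7 to 118 CPM at PP1 (median 76.8 CPM) and from 34.2 to 3223 CPM at PP2 (median 67.5 CPM). The highest PP2 value, that of cow B5090, held 61.9% of the CPM of ATP2A2 over the 28 libraries. ATP2A2 rose at PP2 by 2.65 on the log2 scale (standard error 0.769, adjusted p = 0.0428 from edgeR), with 4 of 8 cows higher and 4 lower. Without the PP2 library of cow B5090 it was 0.36 (adjusted p = 0.385 from edgeR), and blocked on cow it was 0.61 (adjusted p = 0.686 from edgeR), so the call rests on 1 library. At PP1 the value was 0.20 (adjusted p = 0.413 from edgeR). In the same library PYGM and LMOD2 were at 6638 and 1602 CPM. Of the other 3 calcium pumps, none reached an unadjusted p of 0.05 at PP1 or PP2, and ATP2C2, which serves the secretory pathway, had medians of 86.4, 55.6 and 61.5 CPM.

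**Figure D3:**
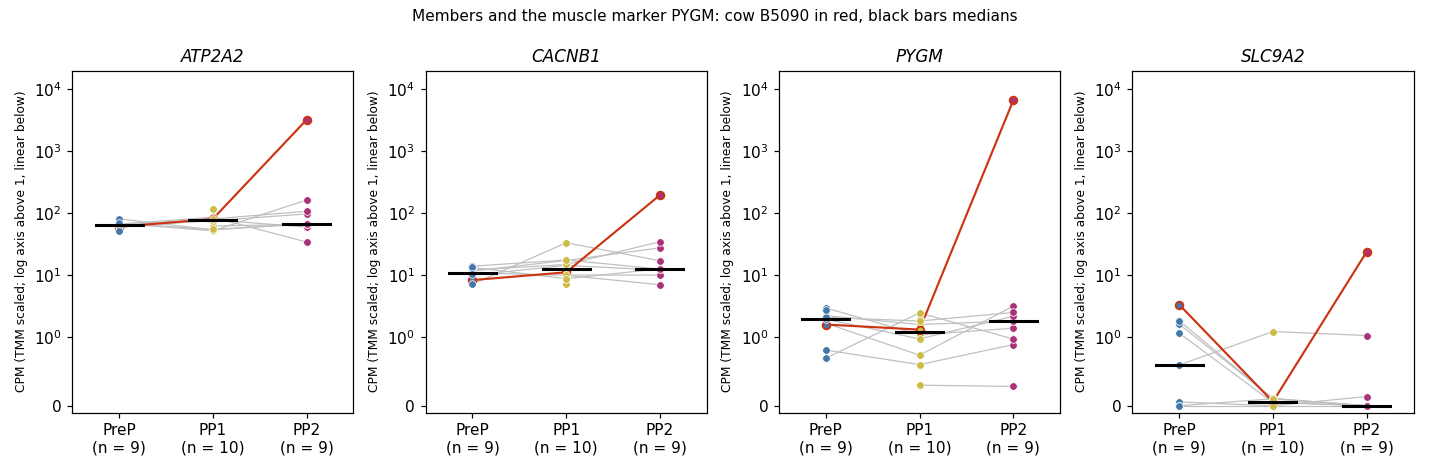
CPM (y axis, logarithmic above 1 and linear below) of ATP2A2, CACNB1, the muscle marker PYGM and SLC9A2 at the 3 time points (x axis), where points are libraries, lines join a cow, black bars are medians and cow B5090 is in red. The PP2 library of cow B5090 is the highest of all 28 in each panel.

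None of the other pump genes was a DEG. ATP6V1G1, a stalk subunit of the proton pump that acidifies lysosomes and vesicles, had medians of 89.02, 99.4 and 91.3 CPM at PreP, PP1 and PP2 with log2 fold changes of 0.07 (standard error 0.128) and -0.08 (standard error 0.211). None of the 3 proton pump subunits reached an unadjusted p of 0.05. Among the phospholipid flippases, ATP11A had medians of 18.3, 18.95 and 20.7 CPM, with log2 fold changes of 0.17 (standard error 0.191) and 0.28 (standard error 0.208). ATP10D, another flippase, was above the highest PreP library in 7 of 10 PP1 and 6 of 9 PP2 libraries, with log2 fold changes of 0.57 (standard error 0.179, adjusted p = 0.0607 from edgeR) and 0.50 (standard error 0.284, adjusted p = 0.315 from edgeR).

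No channel gene was a DEG. CACNB1, the beta subunit of the skeletal muscle calcium channel, ran from 7.12 to 13.9 CPM at PreP (median 10.8 CPM), from 7.26 to 33.3 CPM at PP1 (median 12.7 CPM) and from 6.98 to 196 CPM at PP2 (median 12.6 CPM), again with cow B5090 at the top. Its log2 fold changes were 0.41 (standard error 0.234, adjusted p = 0.28 from edgeR) and 1.70 (standard error 0.520, adjusted p = 0.054 from edgeR). Without the PP2 library of cow B5090 the latter was 0.63 (adjusted p = 0.175 from edgeR), and without cow B5102, the highest of PP1, the former was 0.13 (adjusted p = 0.725 from edgeR).

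SCNN1A, the alpha subunit of the epithelial sodium channel, had medians of 1.89, 2.55 and 3.16 CPM. Its log2 fold changes were 0.78 at PP1 (standard error 0.237, adjusted p = 0.0529 from edgeR, higher in 7 of 8 cows) and 0.95 at PP2 (standard error 0.330, adjusted p = 0.0875 from edgeR, higher in 8 of 8 cows). KCNJ8, the pore of the vascular ATP-sensitive potassium channel, had medians of 26.1, 32.7 and 37.2 CPM with log2 fold changes of 0.43 (standard error 0.242, adjusted p = 0.273 from edgeR) and 0.65 (standard error 0.210, adjusted p = 0.066 from edgeR). Without cow B5090 KCNJ8 was at 0.22 at PP1 (adjusted p = 0.618 from edgeR). Both genes missed the threshold in the main fit while their later medians were above those of PreP. Without cow B5169 SCNN1A was at 0.91 at PP1 (adjusted p = 0.0121 from edgeR). Without the PP2 library of cow B5090 KCNJ8 was at 0.70 at PP2 (adjusted p = 0.0481 from edgeR). Both of these values were below the fold threshold for a DEG. AQP1, a water channel of vessel walls, ranged from 55.5 to 297 CPM at PreP (median 130 CPM), from 98.7 to 284 CPM at PP1 (median 193 CPM) and from 132 to 610 CPM at PP2 (median 190 CPM), with log2 fold changes of 0.34 (standard error 0.265, adjusted p = 0.445 from edgeR) and 0.72 (standard error 0.337, adjusted p = 0.221 from edgeR). The highest PP2 value was that of cow B4886, without which AQP1 was at 0.33 at PP2 (adjusted p = 0.615 from edgeR), and without cow B5129 the PP1 value was 0.20. KCNMB1, the smooth muscle subunit of the calcium-activated potassium channel, had medians of 26.2, 24.4 and 28.9 CPM. KCNE1, an accessory subunit of potassium channels, had 10 reads over the PreP libraries, 0 at PP1 and 2 at PP2, so no fold is given.

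Of the 4 ABC proteins, ABCF2, which has no membrane domain and acts outside transport, had medians of 33.4, 29.5 and 35.2 CPM and log2 fold changes of -0.11 (standard error 0.167) and 0.30 (standard error 0.253). The PP2 value was -0.0034 without the PP2 library of cow B5090, which was at 113 CPM. ABCA5, of the lipid-carrying ABCA family, had log2 fold changes of 0.16 and 0.24.

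PP2 was compared directly with PP1 to see whether a further change followed between day 6 and day 13. From edgeR, 0 of 71 transport genes tested were DEG, and the share over all 18518 genes was 0%. An unadjusted p under 0.05 was reached by 5 of 71 genes (7.04%, against 5.6% of all genes), namely ABCB5, ABCC8, ATP2A2, CACNB1 and SLC9A2, and without the PP2 library of cow B5090 by 0, against 3.08% of all genes. ABCB5 was tested only because of its 10 reads in that library, with 0 reads in the other 27, so its p is not a result, and 4 of 70 remain when it is set aside. DESeq2 and limma voom also called 0, and the likelihood ratio test of edgeR called 1, ATP2A2, where it called 0.864% of all genes. ATP2A2 had a log2 fold change of 2.55 (standard error 0.751, adjusted p = 0.252 from edgeR) and CACNB1 had 1.34 (standard error 0.535, adjusted p = 0.712 from edgeR), which became 0.16 and 0.21 without the PP2 library of cow B5090. SLC9A2, a sodium/proton exchanger, had 23.7 CPM in the PP2 library of cow B5090, 67.5% of its CPM over the 28 libraries, and a PP2 median of 0 CPM. Its log2 fold change of 3.99 (adjusted p = 0.559 from edgeR) became -0.08 without that library. ABCC8, the sulfonylurea receptor of the potassium channel, was at 4.86 CPM there against a PP2 median of 0.06 CPM, with a log2 fold change of 2.29 (adjusted p = 0.72 from edgeR) that became 0.71 without it. For SLC17A9 the log2 fold change between PP1 and PP2 was 0.03 (standard error 0.452) and for SLCO2A1 0.32 (standard error 0.304), with adjusted p values of 0.995 and 0.97 from edgeR, and neither passed the test.

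The spread between cows widened after calving. Over the 52 transport genes with a mean of at least 1 CPM, the median coefficient of variation was 30.3% at PreP, 38.0% at PP1 and 60.7% at PP2, or 55.3% at PP2 without cow B5090, where all 13644 genes at that level had 28.8%, 30.4%, 48.8% and 47.2%. These are descriptions without a test. Single cows stood at the ends of many ranges, and at PP2 the libraries of cows B4886 and B5064 departed together for several genes. These libraries were the lowest of PP2 for ATP6V1A (8.07 and 10.1 CPM), ATP11B (1.85 and 2.37 CPM) and SLC30A5 (11.1 and 10.1 CPM). For SLC12A9 they were the highest (138 and 158 CPM). Their part in the PP2 spread was not tested. The PreP library of cow B5169 was the highest of its time point for 20 of the 52 genes, and the PP2 library of cow B5090 for 13 of 52. The remaining 21 genes had a mean under 1 CPM. At the minimum of 3 reads in a library was SLC4A1, with a highest count of 3 reads, and just above it were KCNE1 and SLC17A8 with 4 each. Genes below it included CACNG3, SLC17A2 and SLC34A2 with a highest count of 1 read in a library and KCNH7 with 0.

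**Figure D4:**
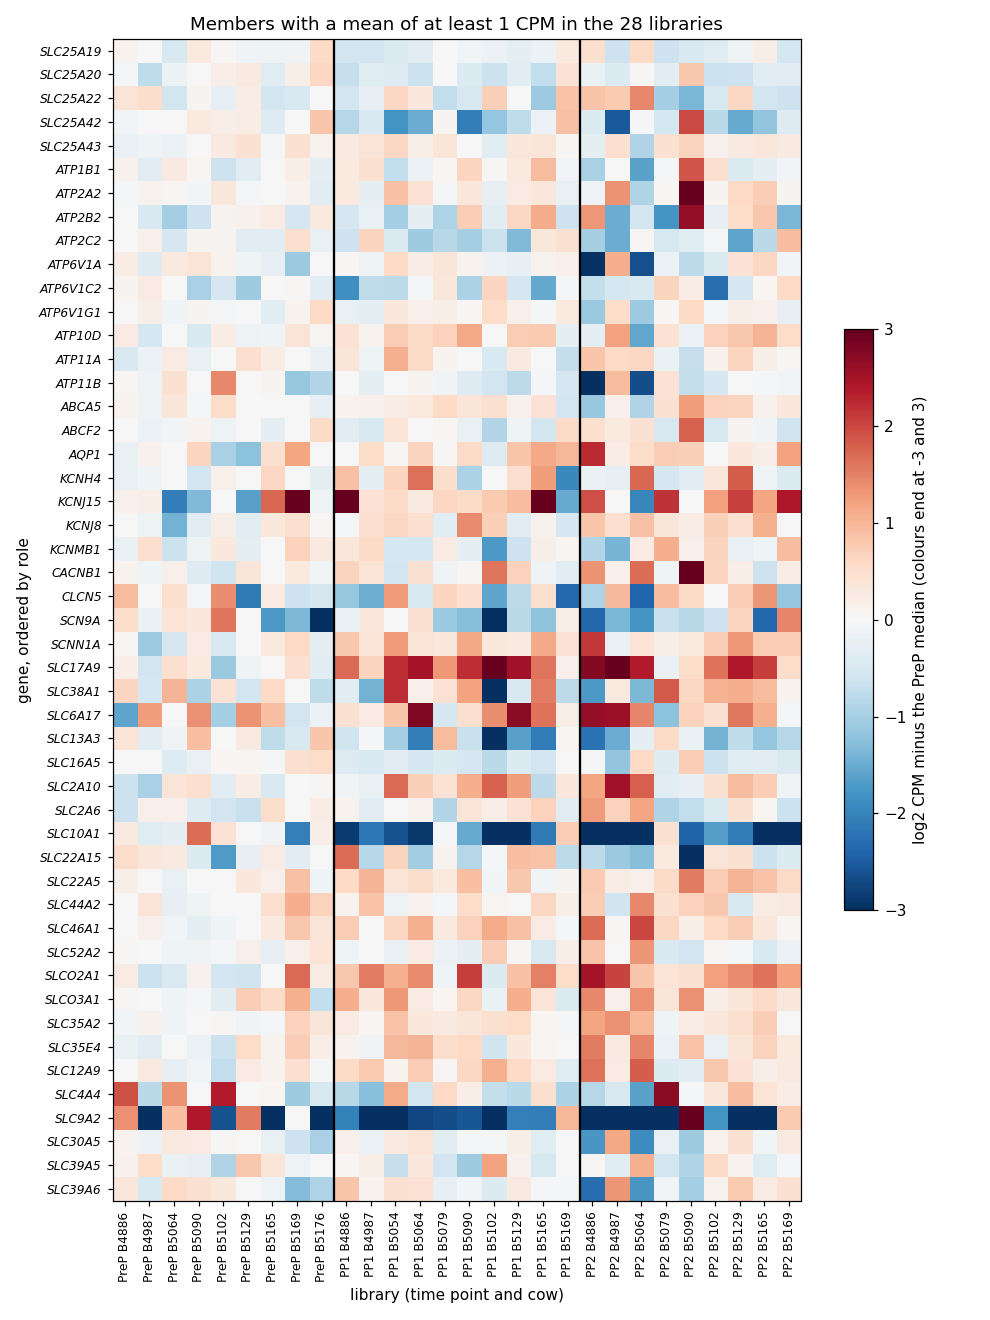
Log2 CPM of each library (columns, by time point and cow) minus the PreP median of the gene (rows, ordered by role), with colours ending at -3 and 3, for 49 of the 52 genes with a mean of at least 1 CPM. SLC17A9 is red in most PP1 and PP2 columns, SLC10A1 is blue in most of them, and ATP2A2 and CACNB1 are darkest in the PP2 column of cow B5090.

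A further 24 transport genes whose symbols fall outside the rule were examined for comparison. At PP1 2 of 24 were DEG, where the share over all genes was 4.03%, and at PP2 0 of 24, where it was 5.47%. TRPV2, a calcium-permeable channel of immune and other cells, had medians of 26.2, 63.1 and 38.5 CPM at PreP, PP1 and PP2 and rose by a log2 fold change of 1.30 at PP1 (standard error 0.250, adjusted p = 0.00555 from edgeR), where the PP1 library of cow B5169 was the lowest. That library was also the lowest of PP1 for CD68, which rose at PP1 too, and the part of CD68-bearing cells in the TRPV2 values was not tested. GJA1, a gap junction channel, had medians of 64.9, 181 and 62.0 CPM and rose by 1.33 at PP1 (standard error 0.366, adjusted p = 0.0351 from edgeR). Blocking on cow, the adjusted p at PP1 was 0.0869 for TRPV2 and 0.0884 for GJA1 from edgeR, with values of 1.22 and 1.11. The GJA1 call was also lost without cow B4886, B5054, B5064, B5090, B5102, B5129 or B5176, with a lowest value of 1.22, and with voom and the joint fit of the time points (adjusted p = 0.052 from limma and 0.186 from edgeR), while that of TRPV2 held with each cow left out. At PP2 TRPV2 was at 0.87 (adjusted p = 0.0905 from edgeR), or 0.99 without the PP2 library of cow B5090 (adjusted p = 0.0283 from edgeR). GJA1 was at 1.78 (adjusted p = 0.0675 from edgeR), which rests on cow B4987, whose PP2 library was at 1109 CPM, and without this cow it was 0.77 (adjusted p = 0.338 from edgeR). GJA1 passed at PP2 with DESeq2, the likelihood ratio test and the joint fit (adjusted p = 0.0127, 0.0222 and 0.0458). It also passed without the PP2 library of cow B5090 (1.91, adjusted p = 0.0409 from edgeR) and without cow B5079 (1.91, adjusted p = 0.0471 from edgeR).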

How the data were processed

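Per the labels and the study's methods, the authors sequenced RNA of snap-frozen AT, mapped reads to bosTau7 with HISAT2 2.1.0 and obtained gene counts on Ensembl IDs with HTSeq 0.6.1. The deposited values are raw counts, neither normalized nor filtered. Strandedness, multi-mapped reads and sequencing batches are not given in the sources used here, so genes that overlap or share reads with close copies are uncertain. One line of the series' design text names mammary glands, while the sample labels name adipose tissue.

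Columns were assigned to cow and time point by label (28 used, 0 not used). Symbols came from a shortened copy of the table in which the study pairs them with IDs, and 73 of 73 are also symbols in RefSeq (ARS-UCD assembly). A gene was tested if 1 or more libraries of the comparison held 3 reads or more, in R 4.3.3 with edgeR 4.0.16 (TMM, quasi-likelihood, each pair of time points alone, Benjamini-Hochberg over all genes). The study's fold change threshold of 1 was read as log2. Levels are CPM, and log2 CPM used a prior count of 1.

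Cow numbers pair libraries of the same animal, but the main test took all libraries as independent, and pairing entered the tests only with the cow block. After removal of time point means, libraries of the same cow had a mean correlation across genes of 0.0979 between PP1 and PreP, 0.0166 between PP2 and PreP and 0.102 between PP2 and PP1.

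Named genes are every DEG, the most abundant gene of each role, DEG among the transport genes outside the symbol rule, and for PP2 against PP1 those with an unadjusted p under 0.05. SLC10A1, SLC2A10, SCNN1A, SLC22A5, SLC46A1, SLC13A3, SLC2A6, SLC45A1, SLC25A42, SLC6A17, SLC38A1, ABCA5, SLC52A2, SLC4A4, ATP2C2, KCNMB1, ATP10D and KCNE1 were named outside this rule, with their values known. Results of some genes are not reported here. The genes, roles and lists were chosen with earlier results of these data known. Alternatives were filterByExpr or no filter, RLE or total counts, DESeq2 1.42.0, the likelihood ratio test, voom of limma 3.58.1 with quality weights, a joint fit of the time points, a cow block, no fold threshold, each cow left out, and, added after seeing the data, the PP2 library of cow B5090 left out.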

Additional observations from a re-analysis of the deposited data

Results flagged for a closer look

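Within a time point, Dixon's test compared the gap between an extreme library and its neighbour with the whole range. Over 83 sets of libraries of the named genes, the gap exceeded the critical value 12 times, where chance gives about 4.15. Some of these genes were named for values that the PP2 library of cow B5090 carries, so nothing is read from the excess. Sets without spread, and ABCB5, with reads in 1 library only, were not tested. Values are log2 CPM, with that of the nearest library in parentheses. The PP2 library of cow B5090 was highest for ATP2A2 at 11.65 (7.35), CACNB1 at 7.61 (5.11), SLC9A2 at 4.57 (0.15), ABCF2 at 6.83 (5.56) and SLC25A20 at 6.87 (6.10). In this library the muscle genes PYGM and LMOD2 were also far above the other libraries, and their part in these values was not tested.

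Cow B5169 was highest at PreP for SLCO2A1 at 5.50 (4.05) and SLC22A5 at 3.76 (3.18), and at PP1 for SLC9A2 at 0.35 (-2.67). Its CD68 was also the highest of PreP and the lowest of PP1. Cow B5176 was highest at PreP for ABCF2 at 5.65 (5.18), and cow B5064 was lowest at PreP for KCNJ8 at 3.29 (4.37). The PP2 library of cow B5129 was highest for KCNE1 at -2.69 (-4.26) and for SLC45A1 at -2.69 (-4.26), each from 2 reads where the other 8 libraries had 0.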

How the results depend on the processing

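For PP1 against PreP the 1 DEG became 2 with the likelihood ratio test (with KCNE1, which reached 3 reads only at PreP, 5.79% of all genes), 2 with DESeq2 (with SLC10A1, 5.72%), 5 with voom (8.62%), 0 with cow as a replicate block (0.314%) and 2 without a fold threshold (6.32%), and 1 to 6 with a cow left out. The 6 came without cow B5169 (SLC17A9 and SLCO2A1 up, and KCNE1, SLC10A1, SLC45A1 and SLC9A2 down), where 9.5% of all genes were DEG, and 3 remain without KCNE1, SLC45A1 and SLC9A2, which then reached 3 reads only at PreP. For PP2 the 3 DEG became 7 with the likelihood ratio test (7.85% of all genes), 5 with DESeq2 (7.08%) and 5 with voom (5.86%), and 1 to 7 with a cow left out. The 7 came without cow B5079 (6.79%), and the 1, SLC17A9, without cow B4886, B4987, B5102, B5129, B5165 or B5176 (2.49% to 3.54%). Without the PP2 library of cow B5090 there were 3 (SLC17A9, SLC2A10 and SLCO2A1), where 6.11% of all genes were DEG. With the block there were also 3 at PP2 (SLC10A1, SLC17A9 and SLCO2A1), against 2.2% of all genes. For PP2 against PP1 the likelihood ratio test and the joint fit of all time points gave 1, ATP2A2 (0.864% and 0.95% of all genes), and the other settings 0. The counts with voom against PreP, and that with the likelihood ratio test at PP2, include SLC45A1, which reached 3 reads only at PreP. RLE and total counts moved the median log2 fold change of all genes by -0.06 to 0.04. The cause of these differences was not tested.

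Of 1131 values of named genes under the alternatives, 1063 kept direction and side of the threshold and 17 turned sign. At PP1, SLC44A2 was 0.14 with voom and 0.11 with the block, and ATP11A was -0.034 with the block. At PP2, ABCF2 was -0.13 with voom and -0.0034 without the B5090 library, ATP6V1G1 was 0.020 with voom and SLC30A5 was -0.30 with the block. For PP2 against PP1, ABCC8 was -0.42 with voom and SLC9A2 -0.083 without the B5090 library. With a cow left out, log2 fold changes at PP1 ran from -0.013 to 0.24 for ATP11A and from -0.14 to 0.089 for SLC44A2, those at PP2 from -0.20 to 0.24 for SLC30A5 and from -0.010 to 0.36 for SLC44A2, and SLC9A2 ran from -0.18 to 5.70 for PP2 against PP1. Of 52 fold changes of named genes against PreP, 27 moved by over 1.5 times with some cow left out, 1 of the 5 with an adjusted p under 0.05 (ATP2A2) and 26 of the other 47. At this depth, genes with under 3 reads in every library could not be tested.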
